A study of Mus musculus with 6 samples.

Results

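A set of 10 genes was examined here as T and NK cell genes in fibrotic mouse liver. They were chosen by symbol, as the rows of the gene count table whose Ensembl identifiers carry the symbols Cd3d, Cd3e, Cd3g, Cd4, Cd8a, Gzma, Gzmb, Nkg7, Klrk1 and Ncr1. All 10 were found among 41388 identifiers, each at a single identifier. The samples were livers of BALB/c mice given carbon tetrachloride (CCl4), a liver toxin that causes fibrosis, for 5 weeks. In the AL/NP group, nanogels loaded with the bisphosphonate alendronate were injected 2 times per week during the last 2 of these weeks, with alendronate at 4 mg/kg. The control group had the same CCl4 fibrosis and is labelled untreated, and the labels do not say whether these mice received injections. Each group had 3 libraries of polyadenylated RNA, made from tissue of each liver lobe. Neither healthy liver nor a nanogel without drug was among the samples, so drug, carrier and injection cannot be told apart. The title of the series puts the question as one about immunosuppressive macrophages and fibrosis, and lymphocyte transcripts of the same livers are described here.

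T cells recognise peptides on MHC molecules through the T cell receptor, whose signal is passed into the cell by the CD3 chains and the zeta chain. CD4 and CD8 are the co-receptors that bind MHC class II and class I. Cytotoxic T cells and natural killer (NK) cells kill by releasing granules that hold perforin and granzymes. NK cells, which are abundant in liver, choose their targets through receptors such as NKG2D and NKp46. In people, aminobisphosphonates such as alendronate can activate a subset of gamma-delta T cells through metabolites of the mevalonate pathway, and mice lack the counterpart of that subset.

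Library totals ranged from 30554483 to 39838428 counts, and each library detected 22512 to 23394 genes. Levels are given as CPM, the usual library-scaled count, here after TMM scaling, and 3 counts correspond to between 0.0825 and 0.104 CPM. The labels number the replicates without saying that each is a separate animal, so the p-values measure the spread between these libraries, which may in part be technical. Hepatocyte transcripts were abundant, with albumin (Alb) between 36790 and 53553 CPM. AL/NP replicate 1 and control replicate 3 each stood apart from the other libraries on some measures. Control replicate 3 had the lowest TMM factor, 0.809. It was the highest of the 6 libraries for 4499 tested genes, and AL/NP replicate 1 for 3884. Compared pair by pair, the counts of control replicate 3 differed from each other library by 152 to 411 chi-square per degree of freedom. AL/NP replicate 1 differed from the libraries other than control replicate 3 by 72.0 to 124. AL/NP replicate 3 and control replicate 2 differed by 154, so AL/NP replicate 1 did not stand apart on this measure. In AL/NP replicate 1, 29 of 15939 tested genes (0.182%) were more than 4-fold above every one of the other libraries, after adding 0.1 CPM. AL/NP replicates 2 and 3 had 2 and 1 such genes and the controls 7, 0 and 17. These 29 include the small cytoplasmic RNA genes Rn7s1 and Rn7s2, the ribosomal RNA-like gene Gm42418, the hormone gene Fgf21, and Cd3e from the set described here.

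All 10 genes had counts in all 6 libraries, and the counts were low. In the controls the count of any of the 10 genes in any library lay between 4 and 45. By edgeR's quasi-likelihood test with Benjamini-Hochberg adjustment over 15939 genes, none of the 7 that passed the count filter was called between AL/NP and control at an adjusted p of 0.05. The background was 13 genes called in all, 0.0816% of those tested. At an unadjusted p below 0.05, 1 of the 7 was past the threshold (Cd3e, higher), beside 19.6% of all tested genes in either direction and 9.37% higher with AL/NP. DESeq2 called 1 of the 6 to which it gave an adjusted p, again Cd3e, beside 5.56% of all genes. The median log2 fold change of the 7 genes was 0.11, against -0.00025 over all tested genes. Cd3d, Gzma and Gzmb did not pass the filter, and their values come from a fit without it. Because whole liver was sequenced, fewer cells of a type and less RNA per cell cannot be told apart.

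**Figure D1:**
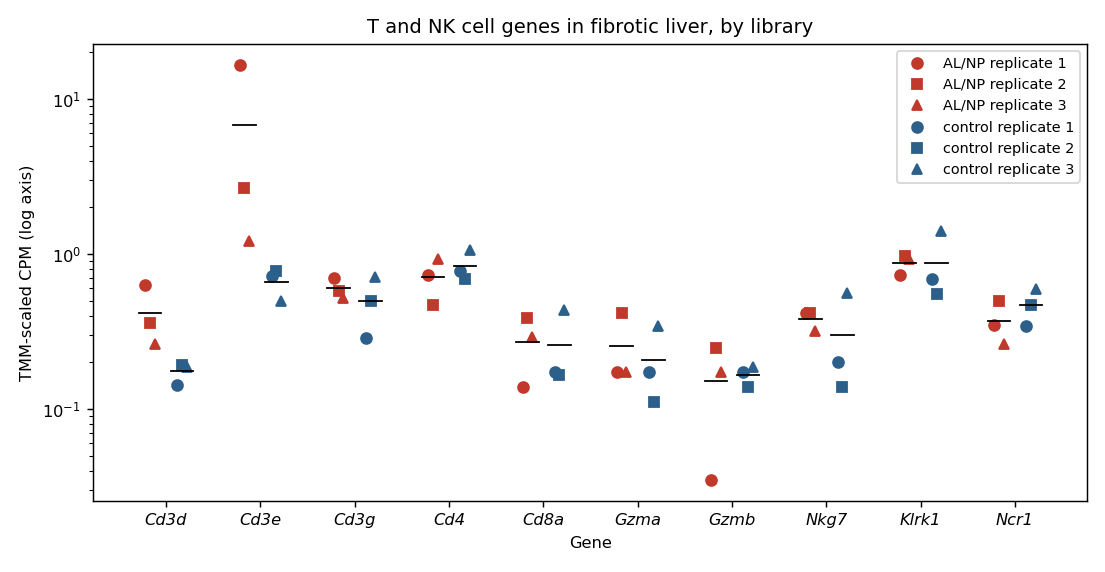
Levels of the 10 T and NK cell genes in each library, as TMM-scaled CPM on a log axis, with red for AL/NP, blue for control and a bar at each group's mean. Cd3e reached 16.6 CPM in AL/NP replicate 1, and Cd3d and Cd3e show no overlap between the groups, while the points of the other 8 genes overlap.

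**Figure D2:**
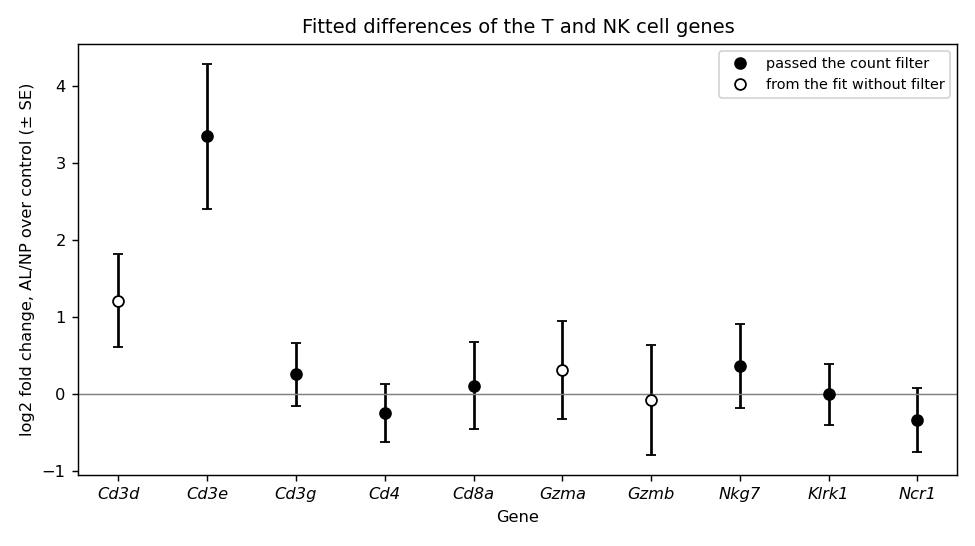
Fitted log2 fold change of each gene, AL/NP over control, with bars of 1 standard error. Filled points passed the count filter and open points come from the fit without it. Cd3e (3.35) and Cd3d (1.22) lie above 0 by more than their standard errors, and the other 8 lie between -0.34 and 0.37.

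The 3 CD3 genes lie side by side on chromosome 9 (GRCm38). Cd3g spans 44969572 to 44980431 on the minus strand, Cd3d 44981786 to 44987339 on the plus strand, and Cd3e 44998740 to 45009627 on the minus strand. Cd3g and Cd3d start close together and run apart. Their upstream sequences are shown because the 3 neighbours differed in their values. Each is the 250 bases before the RefSeq start site in GRCm38.p6, 5′ to 3′ on the gene's strand, from the C57BL/6J reference and not from BALB/c. Capitals mark AGGAAG, a form of the ETS factor motif, on either strand (CTTCCT on the other strand).

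Cd3d, chr9:44981536-44981785, plus strand: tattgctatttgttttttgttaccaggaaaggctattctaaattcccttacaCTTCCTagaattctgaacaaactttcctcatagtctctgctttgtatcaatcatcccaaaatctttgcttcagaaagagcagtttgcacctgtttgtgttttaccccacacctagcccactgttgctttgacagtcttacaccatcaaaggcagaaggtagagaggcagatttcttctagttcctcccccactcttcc

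Cd3e, chr9:45009612-45009861, minus strand: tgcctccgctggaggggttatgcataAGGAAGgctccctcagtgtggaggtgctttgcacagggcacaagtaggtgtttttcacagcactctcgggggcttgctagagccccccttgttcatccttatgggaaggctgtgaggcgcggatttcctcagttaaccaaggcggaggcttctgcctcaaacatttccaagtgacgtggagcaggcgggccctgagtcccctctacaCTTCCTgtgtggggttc

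Cd3g, chr9:44980432-44980681, minus strand: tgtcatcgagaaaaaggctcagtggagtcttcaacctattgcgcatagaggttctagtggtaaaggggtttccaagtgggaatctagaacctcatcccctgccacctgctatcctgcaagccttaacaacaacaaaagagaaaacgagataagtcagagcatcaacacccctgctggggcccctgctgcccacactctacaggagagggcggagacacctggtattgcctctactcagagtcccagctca

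The motif occurred 1 time upstream of Cd3d, 2 times upstream of Cd3e and 0 times upstream of Cd3g. Of 32851 RefSeq promoters of the same length, 29.5% held it, so its presence upstream of Cd3d and Cd3e is a description of these windows. The shorter core GGAA was found in 93.4% of all promoters.

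Cd3e encodes the epsilon chain, which pairs with both the gamma and the delta chain of CD3. Its counts were 478, 97 and 42 in AL/NP replicates 1, 2 and 3, and 25, 28 and 16 in control replicates 1, 2 and 3. Scaled, these are 16.6, 2.67 and 1.22 CPM with AL/NP and 0.718, 0.773 and 0.497 CPM in controls. The groups did not overlap, and AL/NP replicate 1 was well above all other libraries. The log2 fold change was 3.35 (SE 0.944, n = 3 per group), with an unadjusted p of 0.00801 and an edgeR adjusted p of 0.150. DESeq2 gave 3.38 with an adjusted p of 0.0347. Without AL/NP replicate 1 the edgeR value was 1.55 with an adjusted p of 0.253, and the remaining AL/NP libraries were still above all controls. In the fit with neither that library nor the count filter it was 1.55 again, and there it was called, with an edgeR adjusted p of 0.0356, beside 1.35% of all genes. In the fit of all 6 libraries without the filter the adjusted p was 0.369.

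Cd3d encodes the delta chain. It had 18, 13 and 9 counts in AL/NP replicates 1, 2 and 3, against 5, 7 and 6 in the controls, which is 0.415 ± 0.189 CPM and 0.174 ± 0.0269 CPM (SD, n = 3 each). The groups did not overlap. Over all genes with a count, 9.08% lay higher with AL/NP without overlap, as did 14.5% of the genes that passed the filter (29.5% in either direction). From total counts the AL/NP level was 2.30 times that of control, with an exact 95% counting interval of 1.29 to 4.27, which covers counting error only. The fit without filter gave a log2 fold change of 1.22 (SE 0.600), with an unadjusted p of 0.0456 and an edgeR adjusted p of 0.351. In that fit 6.73% of genes were higher with an unadjusted p below 0.05. Without AL/NP replicate 1 the log2 fold change was 0.82, with an edgeR adjusted p of 0.736.

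Cd3g encodes the gamma chain. Its counts were 20, 21 and 18 with AL/NP and 10, 18 and 23 in controls, and the groups overlapped. The log2 fold change was 0.26 (SE 0.412, edgeR adjusted p = 0.746). The 3 subunits of 1 complex had log2 fold changes of 3.35, 1.22 and 0.26, the middle one from the fit without filter.

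For every 100 counts of Cd3g there were 2390, 462 and 233 counts of Cd3e in AL/NP replicates 1, 2 and 3, against 250, 156 and 69.6 in the controls. AL/NP replicate 3 lay below control replicate 1, so the groups overlapped. The log2 ratio differed by 2.19 between the groups, with an exact two-sided permutation p of 0.2 (adjusted 0.28 over 7 ratios tested). With 3 against 3 libraries that test cannot go below 0.1.

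The zeta chain gene and the alpha and beta constant genes lay closer to 0 than Cd3e, and than Cd3d in the fit without filter. The zeta chain gene Cd247 had a log2 fold change of -0.03 (edgeR adjusted p = 0.979), the alpha constant gene Trac 0.33 (0.786), and the beta constant genes Trbc1 and Trbc2 -0.11 (0.894) and 0.47 (0.406). In AL/NP replicate 1, Cd247 and Trac were close to the range of the other libraries. The checkpoint receptor gene Lag3 did stand out there, at 4.83 CPM against 0.386 to 0.993 CPM in the other 5 libraries. In the same library Gm42418 was at 11099 CPM against 2035 to 2351 elsewhere. Rn7s1 was at 185 CPM against 15.9 to 24.3, and Fgf21 at 162 CPM against 1.18 to 18.5. The stress-induced enzyme gene Chac1 was at 13.9 CPM against 0.776 to 3.25. Whether these transcripts bear on the Cd3e value was not tested. On the strand opposite to Cd3e, the antisense gene Gm48719 shares 135 exonic bases with it. The strand setting used in counting is not given in the sources used here, so their reads cannot be told apart. Gm48719 had no row among the counted genes, so its own level is not known.

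**Figure D3:**
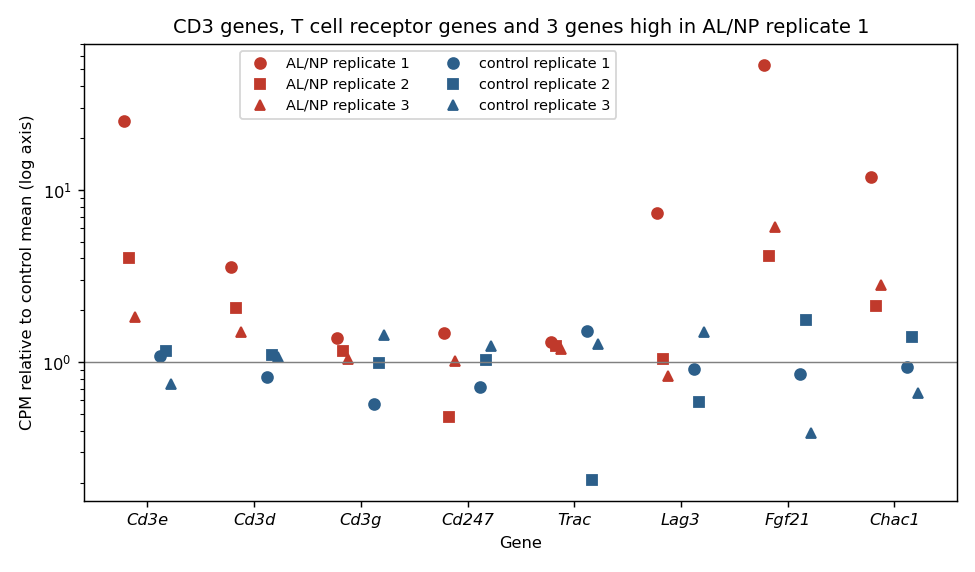
CPM of CD3 genes, T cell receptor genes and 3 genes that were high in AL/NP replicate 1, each divided by its control mean, on a log axis, with 1 symbol per library. Cd3e, Lag3, Fgf21 and Chac1 are highest in AL/NP replicate 1 by a wide gap, while Cd3g, Cd247 and Trac of that library lie among or close to the rest.

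The co-receptor genes differed by less than the spread between libraries. Cd4 (chromosome 6, 124864692 to 124888221, minus strand) had 21, 17 and 32 counts with AL/NP and 27, 25 and 34 in controls, or 0.708 ± 0.231 and 0.840 ± 0.191 CPM (SD, n = 3 each). Its log2 fold change was -0.25 (SE 0.374, edgeR adjusted p = 0.734). Cd4 marks helper and regulatory T cells. Cd8a (chromosome 6, 71373427 to 71379173, plus strand), the alpha chain of CD8 on cytotoxic T cells, had 4, 14 and 10 counts with AL/NP and 6, 6 and 14 in controls. Its log2 fold change was 0.11 (SE 0.563, edgeR adjusted p = 0.926). The groups overlapped for both genes. Total counts gave AL/NP to control ratios of 0.844 for Cd4 (exact 95% counting interval 0.607 to 1.17) and 1.12 for Cd8a (0.631 to 1.98). The log2 ratio of Cd8a to Cd4, with 0.5 CPM added to each, was -0.64 ± 0.447 with AL/NP and -0.83 ± 0.0944 in controls (SD, n = 3 each). The difference of 0.19 had an exact two-sided permutation p of 0.9 (adjusted 0.9 over the 7 ratios).

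For the granule proteins and NK cell receptors, the upstream sequences of Gzmb, Ncr1 and Klrk1 are shown because these genes hold the RUNX motif TGTGGT, which the CD3 genes and Cd8a do not. Capitals mark it on either strand (ACCACA on the other). The windows are the same as for the CD3 genes.

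Gzmb, chr14:56262335-56262584, minus strand: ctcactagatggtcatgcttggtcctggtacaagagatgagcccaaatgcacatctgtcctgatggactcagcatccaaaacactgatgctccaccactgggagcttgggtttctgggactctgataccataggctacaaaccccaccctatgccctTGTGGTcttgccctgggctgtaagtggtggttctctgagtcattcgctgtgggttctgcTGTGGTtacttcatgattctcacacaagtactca

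Ncr1, chr7:4337465-4337714, plus strand: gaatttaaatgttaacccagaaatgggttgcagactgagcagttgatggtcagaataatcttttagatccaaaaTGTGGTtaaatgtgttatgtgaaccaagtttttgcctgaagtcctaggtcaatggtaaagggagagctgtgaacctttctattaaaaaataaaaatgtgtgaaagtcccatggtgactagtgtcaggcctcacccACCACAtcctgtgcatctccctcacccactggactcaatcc

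Klrk1, chr6:129623865-129624114, minus strand: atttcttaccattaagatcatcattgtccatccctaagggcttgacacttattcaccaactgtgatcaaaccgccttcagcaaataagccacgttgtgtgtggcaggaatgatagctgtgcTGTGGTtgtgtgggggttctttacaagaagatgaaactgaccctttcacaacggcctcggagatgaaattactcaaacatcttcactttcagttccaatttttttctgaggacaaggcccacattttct

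Upstream windows were found for 9 of the 10 genes, all but Cd4. The motif was present in 5 of these, namely Klrk1, Ncr1, Nkg7, Gzma and Gzmb, and in 14.0% of all 32851 promoters. The groups overlapped in level for all 5. The other motifs searched on both strands were CANNTG (E-box, in 9 of the 9 windows and 66.2% of all promoters), TGACGTCA (CRE, 0 and 1.55%), its part TGACG (Cd3e, 17.8%) and TGATGNAA (CHOP-ATF4, 0 and 3.45%). The motif of GATA factors, AGATAA, occurred upstream of Cd3g (9.99% of all promoters), CTTTGA (TCF/LEF) of Cd3d (13.8%), and TCACAC (T-box) of Ncr1, Nkg7 and Gzmb (12.3%). TATAAA, a core promoter element, occurred in 0 windows (12.4%) and TTGCNNAA (C/EBP) upstream of Cd8a and Klrk1 (9.56%). AGGAAG contains GGAA, which 7 of the 9 windows held.

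Gzma (chromosome 13, 113093825 to 113100981, minus strand) encodes granzyme A, a granule protease of NK and cytotoxic T cells. It had 5, 15 and 6 counts with AL/NP and 6, 4 and 11 in controls, and the groups overlapped. Gzmb (chromosome 14, 56258838 to 56262260, minus strand), granzyme B, had 1, 9 and 6 counts with AL/NP and 6, 5 and 6 in controls. Its AL/NP replicate 1 was below the level of 3 counts. The fit without filter gave log2 fold changes of 0.32 (SE 0.634, edgeR adjusted p = 0.855) for Gzma and -0.07 (SE 0.717, 0.994) for Gzmb. The counting intervals of their AL/NP to control ratios were wide, 0.694 to 2.40 and 0.461 to 2.05, and they leave out the spread between libraries.

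Nkg7 (chromosome 7, 43437073 to 43438249, plus strand), a granule membrane protein needed for granule release, had 12, 15 and 11 counts with AL/NP. The controls had 7, 5 and 18, so that control replicate 3 was the highest of the 6 scaled libraries. The log2 fold change was 0.37 (SE 0.547, edgeR adjusted p = 0.728). Without control replicate 3 it was 1.16, with an edgeR adjusted p of 0.250.

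Klrk1 (chromosome 6, 129610323 to 129623864, minus strand) encodes NKG2D, an activating receptor for stress-induced ligands. It had 21, 35 and 32 counts with AL/NP and 24, 20 and 45 in controls, or 0.873 ± 0.126 and 0.879 ± 0.454 CPM (SD, n = 3 each). Its log2 fold change was 0.00095 (SE 0.395, edgeR adjusted p = 0.999). Ncr1 (chromosome 7, 4337724 to 4345164, plus strand), the NKp46 receptor that marks NK cells and related innate lymphocytes, had 10, 18 and 9 counts with AL/NP and 12, 17 and 19 in controls. Its log2 fold change was -0.34 (SE 0.415, edgeR adjusted p = 0.670). The groups overlapped for both receptors.

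After TMM scaling, control replicate 3 was the highest of the 6 libraries for 6 of the 10 genes, and AL/NP replicates 1 and 2 were highest for 2 each. On plain library totals control replicate 3 was highest for 2, AL/NP replicate 1 for 3, AL/NP replicate 2 for 4 and AL/NP replicate 3 for 1. Without Cd3e, the other 9 genes summed to 3.89, 4.32 and 3.86 CPM with AL/NP and 2.96, 2.95 and 5.46 CPM in controls. The group values were 4.02 ± 0.257 and 3.79 ± 1.45 CPM (SD, n = 3 each), and the controls reached both below and above the AL/NP libraries. Cd3e made up 81.0%, 38.2% and 24.0% of the counts of the 10 genes in AL/NP replicates 1, 2 and 3, and 8.33% to 20.7% in controls.

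Per length, as RPKM (CPM divided by gene length in kilobases), the control levels ran from Nkg7 (0.327 ± 0.248) and Ncr1 (0.304 ± 0.0797) over Cd4 (0.208), Gzma (0.207), Cd3e (0.162), Cd3g (0.153), Klrk1 (0.122), Gzmb (0.115) and Cd3d (0.0960) to Cd8a (0.0708). Every pair of neighbours in this order overlapped between the 3 control libraries. In AL/NP the mean of Cd3e was 1.67 RPKM with an SD of 2.08, larger than the mean itself.

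The granule and receptor partners were mostly too low to test. Perforin (Prf1) had 3, 4 and 6 counts with AL/NP and 3, 2 and 3 in controls, and interferon-gamma (Ifng) had 0, 1 and 1 against 0, 0 and 1. The NKG2D adaptor gene Hcst had a log2 fold change of 0.53 (edgeR adjusted p = 0.447). Of 123 further T and NK cell pathway genes in 8 lists, 62 were tested and none was called by edgeR. Of the 62, 13 had an unadjusted p below 0.05, 9 higher and 4 lower, beside the shares of all tested genes given above. A log2 fold change above 0 was found for 42 of the 62, beside 7965 of all 15939 tested genes. The median of the 62 was 0.47. DESeq2 called 3 of the 59 to which it gave an adjusted p, beside 5.56% of all genes. Among these were Ctsc and Cxcl16, both higher. In the edgeR fit without filter, 4 of 123 were called, among them Ctsc, Cxcl16 and Srgn, beside 747 of all 29551 genes.

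Among 20 T cell receptor and signalling genes, 13 were tested, with a median of 0.33 and 1 higher at an unadjusted p below 0.05. That was Lcp2, the adaptor SLP-76, at 0.75 (SE 0.246, edgeR adjusted p = 0.177), and the linker gene Lat was at 0.76 (0.296). Lcp2 had 584 counts with AL/NP and 357 in controls, where Cd247 had 38 and 41 and Trac 33 and 27. Its value therefore cannot be assigned to T cells. Among 20 lineage genes, 9 were tested, with a median of 0.16. The CD4 lineage factor gene Zbtb7b was at 0.47 (edgeR adjusted p = 0.209). Its level was 97.6 to 147 CPM with AL/NP and 86.6 to 90.4 CPM in controls. Cd4 had group means of 0.708 and 0.840 CPM, so the Zbtb7b value cannot be assigned to CD4 T cells.

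Of the gamma-delta and innate-like T cell genes, 10 had a row and 4 were tested, none with an unadjusted p below 0.05. Cd163l1, the scavenger receptor gene of gamma-delta cells, was at 0.94 (edgeR adjusted p = 0.279), Cxcr6 at 0.75 (0.460) and the transcription factor gene Sox13 at -0.10 (0.816). The constant region gene Tcrg-C1 had 0, 8 and 10 counts with AL/NP and 2, 6 and 3 in controls, with overlap. It summed to 18 counts with AL/NP and 11 counts in controls. The constant region gene Tcrg-C2 summed to 8 and 8, Tcrg-C4 to 5 and 9, and Il17a had 0 and 1. The summed level of the listed genes was 13.8 to 15.1 CPM with AL/NP and 13.4 to 15.9 in controls. Most of it came from Sox13 and Zbtb16 in every library. These were at 6.15 and 7.88 CPM in AL/NP replicate 1, and at 9.82 and 5.51 CPM in control replicate 1. The sum therefore says little about the constant region genes or about gamma-delta T cells.

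In the granule and effector list, 8 of 16 genes were tested, 2 of them higher and 1 lower at an unadjusted p below 0.05. The higher ones were Ctsc, the protease cathepsin C that activates granzymes and neutrophil proteases, and Srgn, the proteoglycan serglycin of granules. Ctsc was at 66.6 to 80.0 CPM against 33.9 to 41.9, a log2 fold change of 0.92 (SE 0.152, edgeR adjusted p = 0.0783, DESeq2 8.00e-05). Srgn was at 0.87 (edgeR adjusted p = 0.171). Both are also expressed by myeloid cells. The lower one was Rab27a, a GTPase of granule docking, at -0.58 (edgeR adjusted p = 0.226). Among the NK receptors and adaptors, 30 had a row, 9 were tested and 2 were higher at an unadjusted p below 0.05. These were Sh2d1b2, the signalling adaptor EAT-2B, at 1.57 (edgeR adjusted p = 0.124) and Cd244a, the receptor 2B4, at 1.47 (0.144). The shared adaptor DAP12 gene Tyrobp, which is also a myeloid gene, was at 0.81 (0.296).

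Of the NKG2D ligand genes, 5 had a row and 2 were tested. Raet1d was at 0.63 and Raet1e at -0.13. They are related genes whose models share 363 exonic bases on the same strand, so their counts are uncertain. Raet1a, Raet1b and Raet1c had no row. Reads of BALB/c mice were counted on the C57BL/6J reference, so which Raet1 gene these reads came from cannot be told. In the list of cytokines and chemokines, 12 of 15 were tested, with a median of 2.8e-04 and 2 higher and 2 lower at an unadjusted p below 0.05. Cxcl16, the ligand of CXCR6, was at 0.70 (edgeR adjusted p = 0.144, DESeq2 0.0378), and it overlaps Zmynd15 on the other strand. Cxcl11, a ligand of the chemokine receptor CXCR3, was at -1.10 (0.198), and Il15ra at -0.41. The cytokine gene Il18 was at -0.65 (edgeR adjusted p = 0.228). Of 7 checkpoint genes, 5 were tested, all with values above 0. The exhaustion-linked factor gene Tox was at 0.70 (0.196), the ectonucleotidase gene Entpd1 at 0.58, and Lag3 at 1.60 (0.312).

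Several markers of other leukocytes lay higher with AL/NP. The pan-leukocyte list had 10 of 10 above 0, a median log2 fold change of 0.87 and 7 genes higher at an unadjusted p below 0.05, with a summed level of 110 to 177 CPM against 50.6 to 95.7. Laptm5, a lysosomal membrane gene of blood cells, was at 1.44 (edgeR adjusted p = 0.0970). Macrophage and Kupffer cell markers had 12 of 13 above 0, a median of 1.01 and 9 such genes, among them the perforin-2 gene Mpeg1 at 1.20 (0.0579) and the lysozyme gene Lyz2 at 1.61 (0.159). Their summed level was 474 to 827 CPM against 247 to 399. Neutrophil markers had 6 of 6 tested genes above 0, a median of 1.28 and 4 such genes, with S100a9 at 1.30 (0.121) and a summed level of 34.6 to 74.2 CPM against 18.9 to 34.0. Dendritic cell markers had a median of 0.50, with Clec10a at 1.60 (0.128) and Clec9a at -0.15. B and plasma cell markers had a median of -0.65, with Fcer2a at -1.25 (0.159) and Cd79a at -0.57, and a summed level of 5.54 to 7.04 CPM against 5.77 to 10.2. The single mast cell or basophil gene tested, Gata2, was at -0.32. Of 5 hepatocyte genes 4 were below 0, with Ttr at -0.82 (0.140) and Alb at -0.23. Values in parentheses are edgeR adjusted p-values, and no gene of these lists was called by edgeR. DESeq2 called 3 pan-leukocyte, 3 macrophage, 3 neutrophil, 1 dendritic cell and 2 hepatocyte genes, and 0 of the B and plasma cell and of the mast cell and basophil lists. Their part in the T and NK cell values was not tested.

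**Figure D4:**
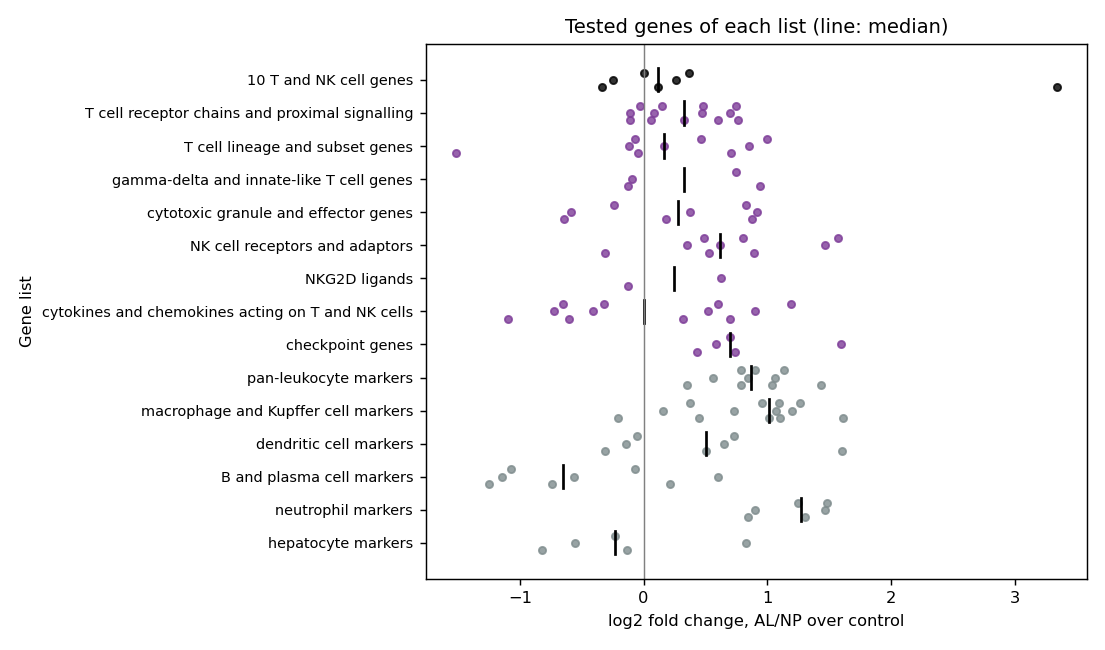
Fitted log2 fold changes, AL/NP over control, of the tested genes of each list, with a line at each list's median. The 10-gene set (7 tested) has its median at 0.11, with Cd3e far to the right, while the pan-leukocyte, macrophage and neutrophil medians lie at 0.87, 1.01 and 1.28.

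Ptprc, which encodes CD45 on all leukocytes, had 365, 693 and 988 counts with AL/NP and 277, 268 and 391 in controls. Its log2 fold change was 1.14 (SE 0.308, edgeR adjusted p = 0.144, DESeq2 0.0129). For every 100 counts of Ptprc there were 5.75, 2.45 and 3.24 counts of Cd4 with AL/NP and 9.75, 9.33 and 8.70 in controls, with no overlap. For Klrk1 the values were 5.75, 5.05 and 3.24 against 8.66, 7.46 and 11.5, again with no overlap. Ncr1 gave 2.74, 2.60 and 0.911 against 4.33, 6.34 and 4.86, also without overlap. Of the 15938 other tested genes, 50.9% lay lower with AL/NP without overlap on the same ratio. Since Ptprc itself was higher with AL/NP in every library, a gene at a level near that of control is lower per Ptprc count, and the separation is not a result about these 3 genes. The log2 ratios differed by -1.37, -0.99 and -1.45. Each had an exact two-sided permutation p of 0.1, the smallest that 3 against 3 can give, adjusted to 0.233 over the 7 ratios. Cd3g and Nkg7 overlapped between the groups on this scale, with differences of -0.75 (p = 0.2, exact permutation) and -0.48 (p = 0.5, exact permutation). These 5 ratios and that of Cd3e to Cd3g were chosen after the data were seen.

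**Figure D5:**
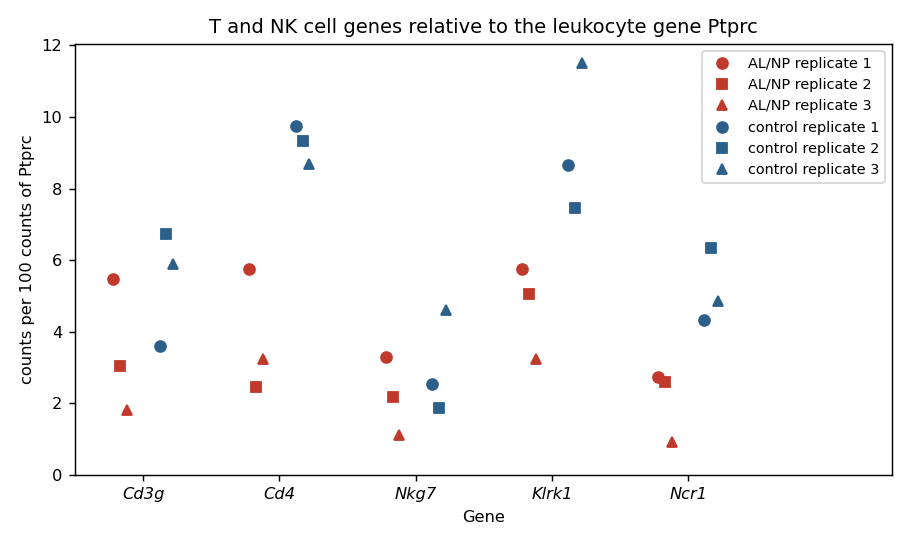
Counts of 5 T and NK cell genes per 100 counts of the leukocyte gene Ptprc, 1 point per library, red for AL/NP and blue for control. The AL/NP points of Cd4, Klrk1 and Ncr1 lie below every control point, as do those of 50.9% of all tested genes on this ratio, and those of Cd3g and Nkg7 overlap with the controls.

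Pearson's r of log2 CPM over the 6 libraries was used to find the genes most like these in pattern. For the mean of Cd3e and Cd3g, the 5 nearest were Map1lc3a (0.998), Puf60 (0.994), Pgls (0.993), Gm11605 (0.993) and Ccdc124 (0.992), and 193 genes had r above 0.95. For Nkg7 they were Oas1g (0.983), Grap (0.979), Ilk (0.978), Cacnb3 (0.977) and Gm12492 (0.974), and 21 genes had r above 0.95. The libraries are shared by all points, and none of these 10 genes was on the T and NK cell lists. Within the set, Klrk1 went with Cd8a (0.886) and with Nkg7 (0.862), while Cd3e with Cd3g gave 0.413 and Cd3e with Cd4 gave -0.397.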

How the data were processed

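RNA was measured in 3 AL/NP and 3 fibrotic control libraries. The deposited table holds whole-number read counts per Ensembl gene, unnormalized as the values show. The authors' tools, per the submitters' processing notes, were STAR 2.6.1a, featureCounts, DESeq2 1.26.0 and the GRCm38 build. Strand setting and annotation release are not given in the sources used here. Of 41388 identifiers 40254 had a symbol. Coordinates are from GENCODE M21.

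Counts were tested with edgeR 4.0.16 in R 4.3.3 (quasi-likelihood test, robust, TMM, filterByExpr with minimum count 10), adjusted by Benjamini-Hochberg over 15939 genes at 0.05, without covariates. Log2 fold changes are positive where AL/NP was higher. DESeq2 1.42.0, other scalings and filters, limma-voom, a replicate block and each library left out were alternatives. Ratios used exact permutation tests. No pair of libraries was closer than 30.6 chi-square per degree of freedom, so none was counted as a duplicate. Intervals and the level of 3 counts cover counting error only. Scripts were tested on simulated data.

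The members and lists were chosen with earlier results of these data known. Named genes were all 10 members, the 2 tested genes of each T or NK list with the smallest p and the 1 with the highest RPKM, the gene with the smallest p and that with the highest RPKM of each list of other cell types, and the 5 nearest patterns. Cd247, Trac, Trbc1, Hcst, Lag3, Prf1, Ifng, Ptprc, Tcrg-C1, Tcrg-C2, Tcrg-C4, Zbtb16, Il17a, Rab27a, Il18, Rn7s1, Rn7s2, Gm42418, Fgf21 and Chac1 were named after their values were seen. Values of some list genes are not reported here. Promoters are from RefSeq (GRCm38.p6). In all, 12 motifs were searched on both strands.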

Additional observations from a re-analysis of the deposited data

How the results depend on the processing

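The number of genes called in all, 13 in the fit reported, was 0 on library totals, 0 with at least 50 counts in 3 libraries, 0 without robust estimation, 23 with the replicate number as a block, 747 without filter and 878 with DESeq2. It was 0 to 4 with 1 library left out, and 391 with neither filter nor AL/NP replicate 1, an alternative chosen after seeing the data. Of the 10 T and NK cell genes, 0 were called in the fit reported and 0 with any 1 library left out, but 1 (Cd3e) with DESeq2 and 1 (Cd3e) with neither filter nor AL/NP replicate 1. Cd3e lay between 1.55 and 3.84 on the log2 scale, with an adjusted p from 0.0347 to 0.369. Of the pathway genes, 0 were called, against 4 without filter, 3 with DESeq2 and 4 with neither filter nor AL/NP replicate 1, and 0 with 1 library left out. The median log2 fold change of the tested members, 0.11, ran from -0.063 to 0.64 with 1 library left out, the 0.64 without control replicate 3. On library totals the median of all genes was 0.13 and that of the members 0.31.

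The log2 ratio of Cd8a to Cd4 ran from -0.067 to 0.34 with 1 library left out, and was -0.067 without AL/NP replicate 2. Small single values changed sign. With 1 library left out, Cd3g ran from -0.018 (control replicate 1) to 0.59. Cd8a ran from -0.22 to 0.70 and was -0.22 with AL/NP replicate 2 left out, -0.10 with control replicate 1 and -0.14 with control replicate 2. Klrk1 ran from -0.26 to 0.49 and was -0.076 and -0.043 with AL/NP replicate 2 or 3 left out, and -0.15 and -0.26 with control replicate 1 or 2. The highest value of all 3 came with control replicate 3 left out. Gzmb was 0.35 with neither filter nor AL/NP replicate 1. In each case the cause was not tested. The filter of 50 counts left none of the 10 genes.

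Replicates with the same number did not deviate together (r of -0.055, 0.043 and 0.075), so the numbers were not taken as pairs. With the replicate number as a block, 0 of the 10 genes were called, and Cd3e was at 2.62 (edgeR adjusted p = 0.112). Counts of 1 to 45 for all members but Cd3e limit what this depth can show.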
